A study of Mus musculus with 20 samples.

Results

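The genes described here are 7 genes of glutamate synthesis and vesicular transport, measured in sorted Trpv1 neurons of the dorsal root ganglia (DRG). They were chosen by name and found by Ensembl identifier among 37620 listed genes, and all 7 were found, with a value in each of the 20 libraries. They are the vesicular glutamate transporters Slc17a6 (VGLUT2), Slc17a7 (VGLUT1) and Slc17a8 (VGLUT3), the glutaminase Gls2, the glutamate dehydrogenase Glud1 and the aspartate aminotransferases Got1 and Got2. The study asked how Trpv1 neurons of lumbar DRG (L4-L5) differ from those of sacral DRG (L6-S1), and whether males and females differ. It describes sacral DRG as a mixture in which neurons of the pelvic organs are far fewer than somatic neurons. Lumbar DRG are described as somatic only. Mice were adults of 6 to 8 weeks and homozygous for Trpv1tm2Bbm, a reporter allele in which the Trpv1 locus drives placental alkaline phosphatase and nuclear LacZ, so both levels and both sexes carried the same allele and no group lacked it. Dissociated cells were given a fluorogenic substrate of beta-galactosidase, and the brightest positive cells were sorted, which makes the sample an enriched and not a pure population. The 4 groups were male lumbar, male sacral, female lumbar and female sacral, each with 5 libraries, and each of the 10 donors gave 1 lumbar and 1 sacral library. The donor labels carry 2 animal numbers each, and whether cells of different mice were pooled is not stated in the sources used here.

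Glutamate is the main fast transmitter of primary sensory neurons. It is made in the nerve terminal from glutamine by glutaminase, or from 2-oxoglutarate by glutamate dehydrogenase and by the aminotransferases, which also carry reducing equivalents into mitochondria as parts of the malate-aspartate shuttle. The vesicular transporters then load it into synaptic vesicles with the energy of a proton gradient that the vacuolar ATPase sets up. In DRG, Slc17a6 is known as the transporter of most nociceptors, Slc17a7 of large myelinated neurons and Slc17a8 of C low-threshold mechanoreceptors.

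The 250 bases upstream of the first listed start site are shown for the 3 transporters. Of these related genes, Slc17a6 and Slc17a8 were higher in sacral DRG and Slc17a7 in lumbar DRG. The sequences are those of RefSeq on GRCm38.p6, written 5′ to 3′ on the strand of the gene, at chr7:51621580-51621829 (plus strand) for Slc17a6, at chr7:45163671-45163920 (plus strand) for Slc17a7 and at chr10:89621250-89621499 (minus strand) for Slc17a8. Capitals mark matches on either strand to any of 4 short motifs. The GC box was searched as GGGCGG, a site that Sp1 family factors can bind. The E box, which helix-loop-helix factors can bind, was searched as CANNTG, and the CCAAT and TATA boxes of core promoters as CCAAT and as TATAAA.
Slc17a6: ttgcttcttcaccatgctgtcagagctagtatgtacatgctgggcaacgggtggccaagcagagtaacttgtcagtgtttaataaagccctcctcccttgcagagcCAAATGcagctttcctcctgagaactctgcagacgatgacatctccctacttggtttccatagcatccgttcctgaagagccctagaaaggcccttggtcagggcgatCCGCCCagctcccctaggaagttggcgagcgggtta
Slc17a7: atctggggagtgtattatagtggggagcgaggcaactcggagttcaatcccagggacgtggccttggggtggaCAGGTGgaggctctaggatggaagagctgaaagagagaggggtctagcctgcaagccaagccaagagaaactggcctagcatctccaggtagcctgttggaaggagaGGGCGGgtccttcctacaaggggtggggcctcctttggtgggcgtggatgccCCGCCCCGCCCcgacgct
Slc17a8: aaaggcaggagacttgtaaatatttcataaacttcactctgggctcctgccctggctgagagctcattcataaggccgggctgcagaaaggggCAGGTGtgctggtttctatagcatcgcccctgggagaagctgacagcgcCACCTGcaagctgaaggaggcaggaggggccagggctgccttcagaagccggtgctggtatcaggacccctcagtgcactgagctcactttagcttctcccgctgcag
Slc17a7 held 3 matches to the GC box, of which the last 2 share a base, and 1 match to the E box. Slc17a6 held 1 GC box and 1 E box, and Slc17a8 held 2 E boxes and none of the other motifs. Among all 32851 upstream windows of this length, 32.7% held a GC box, 33.8% a CCAAT box, 12.4% a TATA box and 66.2% an E box. Of the other genes, Got1 held 5 CCAAT boxes, Got2 a TATA box and an E box, and Glud1 3 GC boxes and an E box in a window of 82.0% GC, against a median of 52.4% over all windows. In all, 6 of the 7 genes had a listed start site, and Gls2 had no entry. These matches describe the letters and were not tied to binding or to any difference between the levels.

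The libraries held 43499216 to 65542378 reads on genes, worked back from the deposited values, which are log2 RPKM, the log2 of read number divided by gene length and by a library's size. Reads of the mitochondrial genome took 37.7% to 60.9% of the reads of lumbar libraries and 21.9% to 42.1% of those of sacral libraries. Markers of the sorted cells were present in every library, with Trpv1 at a mean of 3.74 ± 0.41 (SD, n = 10) in lumbar and 4.70 ± 0.35 in sacral DRG on the log2 RPKM scale. Of 12 glial markers, all with reads in every library, 10 were higher in lumbar DRG, and the log2 of their summed RPKM ran from 10.825 to 11.91 in lumbar and from 10.116 to 10.949 in sacral libraries. All 5 endothelial markers were higher in lumbar DRG, with summed levels of 2.88 to 5.661 against 2.568 to 4.744, and so were 2 of 3 immune markers tested (2.768 to 5.125 against 1.542 to 3.091), where C1qa had no reads in some libraries. Of 6 peptidergic nociceptor markers, 4 were higher in sacral DRG and 2, Calca and Tac1, did not pass the test. Beside these counts, 30.3% of all genes tested were higher in sacral and 15.3% in lumbar DRG. RNA was taken from a bulk of sorted cells, so that fewer cells of a type and less RNA per cell cannot be told apart.

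Between the levels, all 7 genes passed the test: 6 were upregulated in sacral DRG and 1, Slc17a7, was higher in lumbar DRG. Over all 16304 genes tested, 45.6% passed (limma, adjusted p of at most 0.05), 30.3% higher in sacral and 15.3% higher in lumbar DRG, and the median log2 fold change was -0.11. Fold changes are lumbar minus sacral on the log2 scale, so negative values stand for higher levels in sacral DRG. The median log2 fold change of the 7 genes was -0.57. The filter asked for a mean log2 RPKM above -1 in at least 1 group. Slc17a7 met it through male lumbar libraries alone, a group in which it is high, and Gls2 met it in 3 of the groups, so the count of 7 is a description of these genes.

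**Figure D1:**
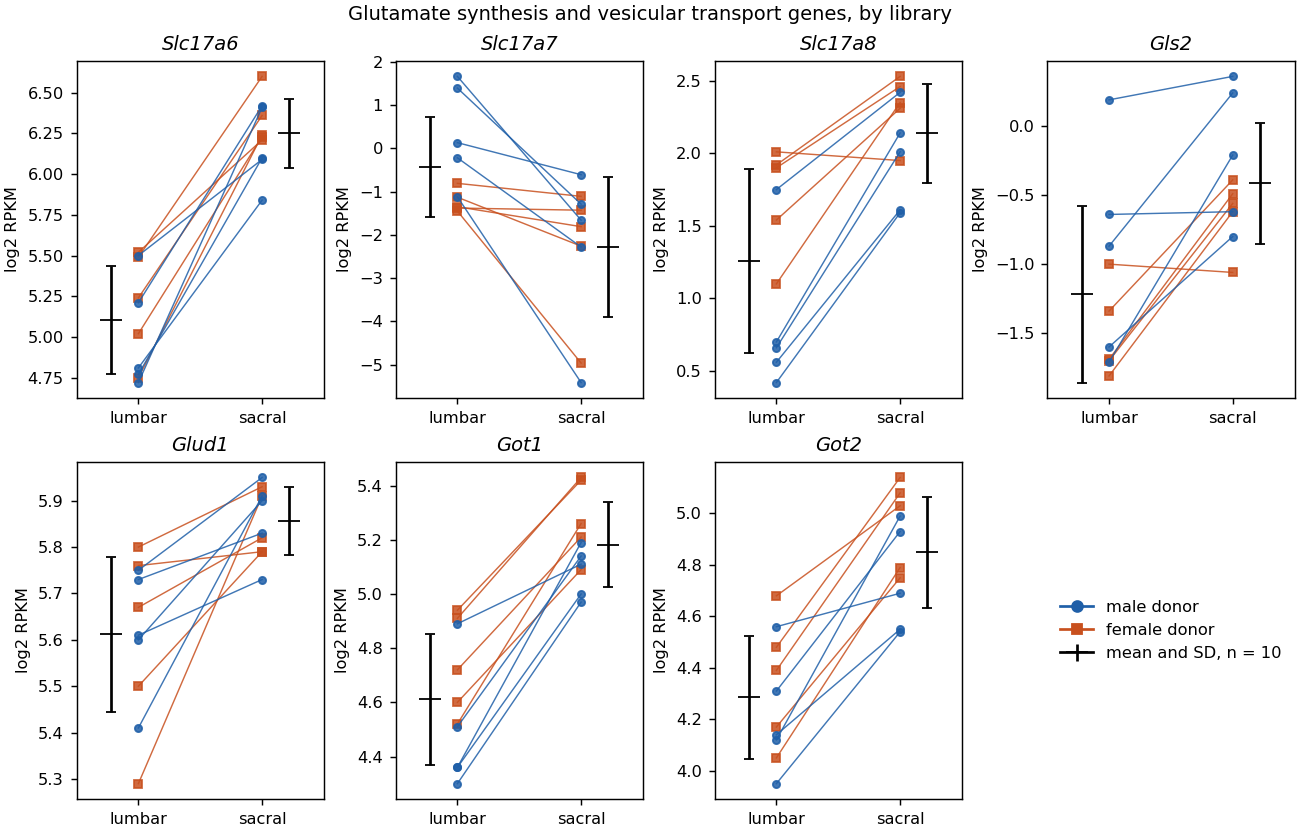
Log2 RPKM (vertical axis, own scale in each panel) of the 7 genes in lumbar and sacral libraries, with a line for each of 5 male and 5 female donors and black marks for the mean and SD of 10 libraries. Slc17a6 and Got1 separate the levels completely, every Slc17a7 line falls from lumbar to sacral, and 2 sacral Slc17a7 libraries lie near -5.

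Slc17a6 (ENSMUSG00000030500, chromosome 7 of mm9, 58877200 to 58926495, plus strand) was the most abundant vesicular glutamate transporter in every library. Its log2 RPKM in male donors 1 to 5 was 5.50, 4.77, 5.21, 4.81 and 4.72 in lumbar DRG, against 6.09, 6.10, 6.42, 5.84 and 6.41 in sacral DRG. In female donors 1 to 5 it was 5.24, 5.52, 4.75, 5.02 and 5.49 in lumbar DRG, against 6.36, 6.21, 6.24, 6.23 and 6.60 in sacral DRG. The highest lumbar library, 5.52, lay below the lowest sacral library, 5.84, so the levels did not overlap, as held in this direction for 1.34% of the 15318 genes with a value in every library. The means were 5.10 ± 0.33 and 6.25 ± 0.21 (SD, n = 10 each), and 4280 to 28286 reads per library lay behind them. Slc17a6 was 2.21-fold higher in sacral DRG, with a log2 fold change of -1.15 (limma, standard error [SE] 0.11, adjusted p = 2.23e-07), and higher in all 10 donors, as were 14.6% of genes.

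Slc17a7 (ENSMUSG00000070570, chromosome 7, 52419291 to 52431508, plus strand) was on average the least abundant transporter and the gene with the widest spread, and it exceeded Slc17a8 in the lumbar libraries of male donors 3 and 5. In male donors 1 to 5 its log2 RPKM was -0.22, -1.12, 1.66, 0.13 and 1.39 in lumbar DRG, against -2.28, -5.41, -1.66, -0.61 and -1.29 in sacral DRG. In female donors 1 to 5 it was -1.35, -1.13, -1.45, -1.38 and -0.81 in lumbar DRG, against -1.81, -2.26, -4.96, -1.43 and -1.11 in sacral DRG. The levels overlapped (0.372% of genes had every lumbar library above every sacral one). In the deposited values the lumbar library was higher within each of the 10 donors, as for 6.55% of genes, by 0.06 to 4.29 on the log2 scale. For female donors 1 and 4, at 0.47 and 0.06, lumbar libraries held 44 and 41 reads of this gene and sacral libraries 48 and 53. The sign in these donors depends on the scaling between libraries. The log2 fold change was 1.86 (limma, SE 0.50, 95% interval 0.82 to 2.89, adjusted p = 0.0046), or 3.62-fold.

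Few reads carry the Slc17a7 values. Lumbar libraries held 41 to 407 reads of this gene and sacral libraries 4 to 123, and the sacral libraries of male donor 2 and female donor 3 had 4 and 6 reads. Without both of these donors, a choice made after seeing the data, the log2 fold change was 1.34 (adjusted p = 0.00213 from limma). With 1 RPKM added before the log it was 0.54 (adjusted p = 0.00312 from limma), which understates the change of a low gene. Pvalb, a marker of large proprioceptive neurons, and Spp1, also a marker of myelinated neurons, were higher in lumbar DRG as well, by 2.10 (limma, SE 0.59, adjusted p = 0.00718, over the 18 libraries with a value) and 1.30 (SE 0.25, adjusted p = 0.000323). Of the 7 myelinated neuron markers tested, 3 were higher in lumbar DRG, 1 in sacral DRG and 3 did not pass, with log2 of the summed RPKM of 5.944 to 6.863 in lumbar and 5.741 to 6.34 in sacral libraries. Their part in the difference of Slc17a7 was not tested.

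Slc17a8 (ENSMUSG00000019935, chromosome 10, 89036765 to 89083998, minus strand) was intermediate in level and upregulated in sacral DRG. In male donors 1 to 5 its log2 RPKM was 1.75, 0.42, 0.70, 0.56 and 0.66 in lumbar DRG, against 2.42, 1.59, 2.14, 1.61 and 2.01 in sacral DRG. In female donors 1 to 5 it was 2.01, 1.90, 1.10, 1.54 and 1.92 in lumbar DRG, against 1.95, 2.46, 2.35, 2.31 and 2.53 in sacral DRG. Female donor 1 was the exception to the direction, by 0.07, and the levels overlapped. The log2 fold change was -0.88 (limma, SE 0.15, adjusted p = 8.04e-05), or 1.84-fold higher in sacral DRG, at 251 to 1834 reads per library. The 4 markers of C low-threshold mechanoreceptors that were tested were all higher in sacral DRG too, and Th, the enzyme that makes dopa, had the largest of these differences with -1.40 (SE 0.17, adjusted p = 4.61e-06).

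**Figure D2:**
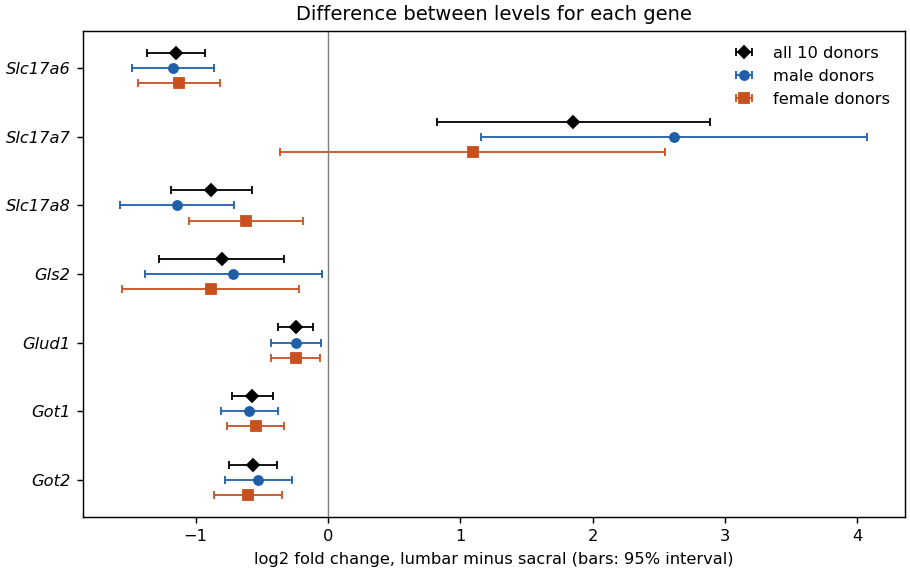
Log2 fold change, lumbar minus sacral (horizontal axis), of each gene over all 10 donors and in males and females apart, from 1 fit, with bars for the 95% interval. Values left of 0 are higher in sacral DRG. Slc17a6 was alike in size in both sexes, -1.17 and -1.12, and the interval of Slc17a7 in females, -0.37 to 2.55, includes 0.

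In each library Slc17a6 made up most of the RPKM of the 3 transporters. Its share was 90.6% ± 2.08 in lumbar and 94.1% ± 1.07 in sacral DRG (SD, n = 10 each), with 86.2% to 93.8% and 92.4% to 95.8%. The difference, lumbar minus sacral, was -3.47 percentage points on average (SD of the 10 donor differences 2.56) and had this sign in 10 of 10 donors (exact sign-flip permutation test, two-sided p = 0.00195, the smallest that 10 pairs allow). Slc17a7 took 2.83% ± 2.88 of the sum in lumbar and 0.373% ± 0.291 in sacral DRG, and was higher in lumbar DRG in 10 of 10 donors (exact p = 0.00195). Slc17a8 took 6.54% ± 1.83 and 5.53% ± 1.08, a difference of 1.01 points with 7 of 10 donors higher in lumbar DRG that did not pass (exact p = 0.082). These shares do not depend on the scaling between libraries, and their rise and fall are not independent of each other because they add up to the whole.

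Differences within a library also free the comparison of pairs of genes from scaling. They were taken for 5 pairs, chosen with the values known, and tested by exact sign flips over the 10 donors with adjustment over the 5. The log2 distance of Slc17a6 from Slc17a7 was 5.53 ± 1.24 in lumbar and 8.53 ± 1.59 in sacral DRG, a change of -3.00 with a 95% interval of -4.21 to -1.79 (exact permutation test, adjusted p = 0.00977). The distance of Slc17a6 from Slc17a8 was 3.85 ± 0.42 and 4.11 ± 0.29, a change of -0.27 that did not pass after adjustment (interval -0.55 to 0.02, exact permutation test, adjusted p = 0.0716). Set against Trpv1 (-0.958) and Scn10a (-0.94), which were higher in sacral DRG themselves, the change in Slc17a6 was smaller than in the deposited values. Of the 6 peptidergic nociceptor markers, 4 were higher in sacral DRG. Calca (0.155) and Tac1 (-0.095) did not pass, and no pair with them was taken, so this holds for the chosen markers only. Relative to Trpv1 it was -0.19 (interval -0.56 to 0.18, 6 of 10 donors, exact permutation test, adjusted p = 0.342). Relative to Scn10a, the sodium channel Nav1.8 of nociceptors, it was -0.21 (interval -0.35 to -0.07, 9 of 10 donors, exact permutation test, adjusted p = 0.0244).

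Gls2 (ENSMUSG00000044005, chromosome 10, 127631513 to 127647060, plus strand), which encodes the liver-type glutaminase, was expressed at a low level, with 36 to 237 reads per library. Its log2 RPKM ran from -1.81 to 0.19 with a median of -1.47 in lumbar DRG, and from -1.06 to 0.36 with a median of -0.52 in sacral DRG. The levels overlapped, the highest lumbar value belonged to male donor 3, and sacral DRG were higher in 9 of 10 donors. The log2 fold change was -0.80 (limma, SE 0.23, adjusted p = 0.00696), or 1.74-fold, and -0.28 with 1 RPKM added before the log (adjusted p = 0.0123). Gls2 shares 97 bases with Spryd4 on the opposite strand, and since counting by strand is not stated, reads in that stretch cannot be assigned with certainty.

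Glul, the glutamine synthetase that satellite glia use to turn glutamate back into glutamine, was higher in lumbar DRG. Its mean was 6.55 ± 0.24 in lumbar and 6.11 ± 0.19 in sacral DRG, with a log2 fold change of 0.45 (limma, SE 0.09, adjusted p = 0.000297) and higher lumbar values in all 10 donors.

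Glud1 (ENSMUSG00000021794, chromosome 14, 35123913 to 35158330, plus strand), the mitochondrial enzyme that interconverts glutamate and 2-oxoglutarate, had the smallest difference of the 7 genes. Its log2 RPKM ran from 5.29 to 5.80 with a median of 5.64 in lumbar DRG, and from 5.73 to 5.95 with a median of 5.86 in sacral DRG. The levels overlapped, and 10 of 10 donors were higher in sacral DRG, by as little as 0.03 in female donor 2. The log2 fold change was -0.24 (limma, SE 0.06, adjusted p = 0.00416), or 1.18-fold. This direction depends on the scaling: the log2 fold change was -0.13 with TMM factors (adjusted p = 0.054), -0.02 when scaled to reads outside the mitochondrial genome (adjusted p = 0.808), -0.57 when scaled to total reads (adjusted p = 1.62e-05), and 0.29 when libraries were centred on the peptidergic nociceptor markers (adjusted p = 0.00187), a reversal.

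Got1 (ENSMUSG00000025190, chromosome 19, 43574242 to 43599095, minus strand) is the cytosolic and Got2 (ENSMUSG00000031672, chromosome 8, 98388034 to 98412447, minus strand) the mitochondrial aspartate aminotransferase. Got1 ran from 4.30 to 4.94 with a median of 4.56 in lumbar DRG and from 4.97 to 5.43 with a median of 5.16 in sacral DRG, without overlap of the levels. Got2 ran from 3.95 to 4.68 with a median of 4.24 and from 4.54 to 5.14 with a median of 4.86, and 8 of 10 sacral libraries lay above all lumbar ones. Both were higher in sacral DRG in all 10 donors. The log2 fold changes were -0.57 for Got1 (limma, SE 0.07, adjusted p = 6.76e-06) and -0.57 for Got2 (SE 0.09, adjusted p = 3.72e-05). Their size depends on the scaling: scaled to reads outside the mitochondrial genome they were -0.34 for both, and scaled to total reads -0.90 for both, and all 4 values passed. With libraries centred on the peptidergic nociceptor markers neither passed, with Got1 at -0.04 (limma, adjusted p = 0.607) and Got2 at -0.03 (adjusted p = 0.633). The distance between them was 0.33 in both levels and changed by -0.01, with a narrow interval of -0.10 to 0.09 (4 of 10 donors lower in lumbar DRG, exact permutation test, adjusted p = 0.877).

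By level of expression per length, the order differed between lumbar and sacral DRG. In lumbar libraries Glud1 (mean log2 RPKM 5.61) came before Slc17a6 (5.10) in 10 of 10 libraries, by 0.51 ± 0.22. In sacral libraries Slc17a6 (6.25) came before Glud1 (5.86) in 10 of 10, by 0.40 ± 0.17. Got1, Got2 and Slc17a8 followed in both levels, each neighbour apart by more than its SD. At the low end Slc17a7 exceeded Gls2 in 8 of 10 lumbar libraries, by 0.79 ± 0.86, less than the spread, whereas Gls2 exceeded Slc17a7 in 10 of 10 sacral libraries, by 1.87 ± 1.79.

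The levels of several of these genes followed the glial markers within a level, as a plot of both shows. The sexes were pooled within a level, and sex means were not taken out. In lumbar libraries the glial marker mean was 6.20 in males and 5.75 in females, and Slc17a8 was 0.82 and 1.70. The part of sex in these relations was not tested. In the 10 lumbar libraries, Slc17a6 fell as the mean of the glial markers rose (Pearson r = -0.85, permutation p = 0.00335, Spearman rho = -0.76, permutation p = 0.015, and r = -0.80 without the 2 libraries farthest from the median). Adjusted over 14 relations, that is 7 genes in 2 levels, these p-values were 0.0117 and 0.042. In the 10 sacral libraries r was -0.67 (permutation p = 0.0294, adjusted 0.0588) and rho -0.50 (permutation p = 0.145, adjusted 0.226). Without the 2 farthest libraries r was -0.39 there. Leaving out such libraries also narrows the range of the glial marker mean, which by itself can lower r. Slc17a8 had r = -0.91 and rho = -0.92 in lumbar libraries (permutation p = 0.00059 and 0.00061, adjusted 0.00581 and 0.00854, and r = -0.87 without the 2 farthest), and r = -0.56 and rho = -0.62 in sacral libraries (permutation p = 0.0964 and 0.0596, adjusted 0.15 and 0.104), where r was 0.02 without the 2 farthest. Got1 and Got2 passed after adjustment in both levels, with r = -0.90 and -0.86 in lumbar and -0.74 and -0.84 in sacral libraries (rho -0.87 and -0.83, and -0.75 and -0.81, all adjusted permutation p at most 0.0425). Without the 2 farthest libraries r was -0.88 for both in lumbar DRG, and -0.52 for Got1 and -0.69 for Got2 in sacral DRG. Glud1 and Gls2 did not pass in either level. Slc17a7 had r = 0.20 and rho = 0.15 in lumbar libraries (permutation p = 0.578 and 0.68, adjusted 0.662 and 0.736), and r = -0.45 and rho = -0.20 in sacral libraries (permutation p = 0.223 and 0.583, adjusted 0.284 and 0.736).

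With the glial marker mean as a covariate, 229 genes passed in place of 7436, and 2 of the 7 did. Slc17a6 kept its direction at -0.70 (limma, SE 0.15, adjusted p = 0.019), and Slc17a7 was at 3.38 (SE 0.83, adjusted p = 0.0434). Slc17a8 was at -0.34 (adjusted p = 0.564), Got1 at -0.29 (adjusted p = 0.228), Got2 at -0.15 (adjusted p = 0.596), Glud1 at -0.11 (adjusted p = 0.719) and Gls2 at -0.96 (adjusted p = 0.317). The glial marker mean was higher in the lumbar library of 10 of 10 donors, by 0.609 to 1.51, so that the covariate moved with the level in every donor.

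**Figure D3:**
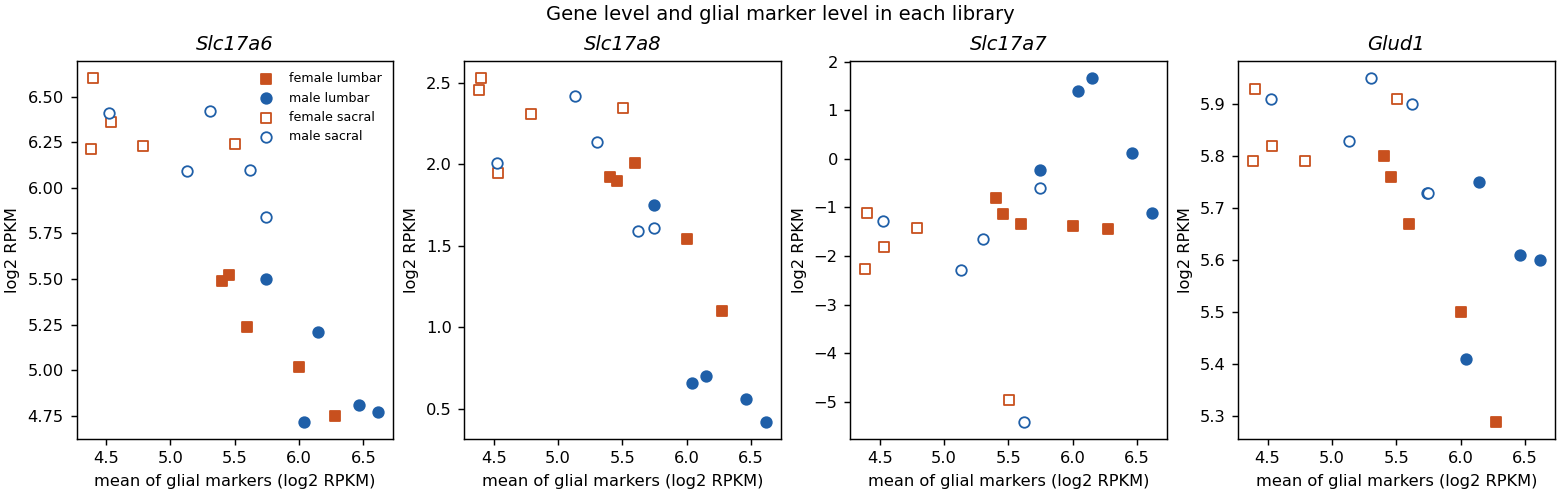
Log2 RPKM of 4 of the genes (vertical axis) against the mean log2 RPKM of 12 glial markers (horizontal axis), 1 point per library, filled for lumbar and open for sacral, squares for females and circles for males. Slc17a6 and Slc17a8 were low in the lumbar libraries with the highest glial marker mean, and the 2 lowest Slc17a7 points are sacral.

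Among the other genes that make or use glutamate, the directions were mixed. Of 15 tested genes that interconvert glutamate, glutamine and related amino acids, 4 were higher in sacral DRG, 5 in lumbar DRG and 6 did not pass. Their median log2 fold change was -0.09. For this and the following lists, the shares over all genes tested were 30.3% higher in sacral and 15.3% higher in lumbar DRG. Asparagine synthetase Asns (-0.59, adjusted p = 0.000148) and Aldh4a1, a dehydrogenase of proline breakdown (-0.57, adjusted p = 0.00703), were higher in sacral DRG. Higher in lumbar DRG, beside Glul, were the branched-chain aminotransferase Bcat1 (0.66, adjusted p = 0.0479) and the mitochondrial alanine aminotransferase Gpt2 (0.55, adjusted p = 0.000488, limma). Gad1 and Gad2, which make GABA from glutamate, were too low to be tested.

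At the plasma membrane, 4 of 8 tested transporters were higher in sacral and 2 in lumbar DRG. Slc1a6 (EAAT4, -0.96), Slc38a7 (-0.78) and the neuronal glutamine transporter Slc38a1 (-0.69) were higher in sacral DRG, with adjusted p-values of 0.00868, 0.000248 and 4.98e-05 from limma. Slc1a3, the glial glutamate transporter GLAST, was higher in lumbar DRG by 1.07 (SE 0.16, adjusted p = 2.2e-05) and in all 10 donors, and so was the neutral amino acid exchanger Slc1a5 (0.85, adjusted p = 0.000382).

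Of 7 tested genes of the malate-aspartate shuttle and mitochondrial carriers, 6 were higher in sacral DRG, by 0.37 to 0.54 on the log2 scale, among them the 2-oxoglutarate dehydrogenase Ogdh (-0.54), the aspartate-glutamate carrier Slc25a12 (-0.52) and the cytosolic malate dehydrogenase Mdh1 (-0.47), with adjusted p-values of 0.000121, 0.000113 and 8.98e-05. Glutamate carriers differed in direction. Slc25a18 was higher in lumbar DRG by 1.01 (limma, SE 0.23, adjusted p = 0.00126), and Slc25a22 was among the 6 higher in sacral DRG (-0.40, adjusted p = 0.00811). Slc25a13, the paralog of Slc25a12, was too low to be tested, at a mean log2 RPKM of -1.41 in lumbar and -2.78 in sacral DRG, with the lumbar library higher in 9 of 10 donors.

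Of 19 tested subunits of the vacuolar proton pump, 13 were higher in sacral and 1 in lumbar DRG, and 5 did not pass, with a median log2 fold change of -0.40 against -0.11 over all genes. Atp6v0a1 (-0.74, adjusted p = 1.58e-05), Atp6v1a (-0.65, adjusted p = 6.84e-05) and Atp6ap2 (-0.59, adjusted p = 0.000181) had the largest differences, and Atp6v0e went the other way (0.44, adjusted p = 0.00151). Of the other vesicular and SLC17 transporters only 2 were tested. The lysosomal sialic acid transporter Slc17a5 was higher in sacral DRG (-0.66, adjusted p = 7.51e-05), and the monoamine transporter Slc18a2 was at -0.03 (adjusted p = 0.849, limma). Slc17a1, Slc17a4 and the GABA transporter Slc32a1 had no value in any library.

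**Figure D4:**
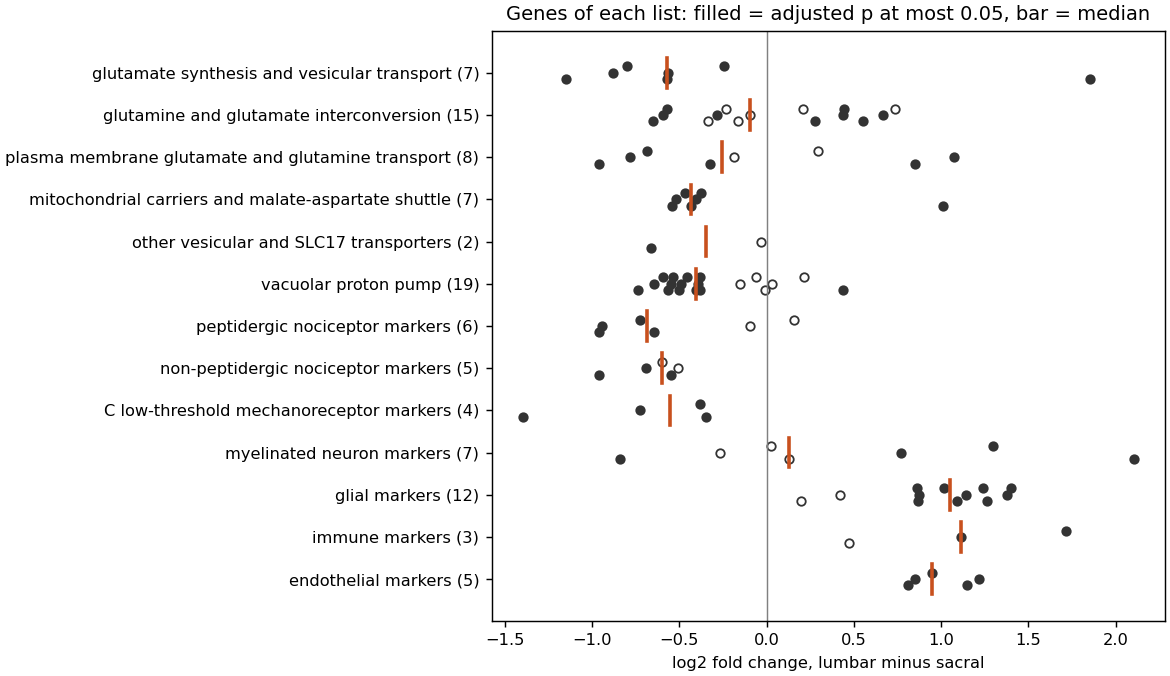
Log2 fold change, lumbar minus sacral (horizontal axis), of each tested gene in 13 lists, with the number of genes tested in brackets, filled points for an adjusted p of at most 0.05 and a bar for the median. The glutamate genes, proton pump and nociceptor markers lie mostly left of 0, and the glial, immune and endothelial markers to the right.

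None of the 7 genes passed the test between females and males. In lumbar DRG 0 of 7 passed in limma (2 at an unadjusted p under 0.05, and 0 by voom), where 0.0427% of all genes did, and in sacral DRG 0 of 7 (0 unadjusted, and 0 by voom), where 0.0368% did. The largest sex difference relative to its error was that of Slc17a8 in lumbar DRG, 0.88 higher in females (standard error 0.23, 95% interval 0.41 to 1.35, adjusted p = 0.227, unadjusted p = 0.00089, limma). Lumbar Slc17a8 was 0.82 ± 0.53 in males and 1.70 ± 0.38 in females (SD, n = 5 each), with overlap because male donor 1 stood at 1.75. Without that donor the difference was 1.11 (standard error 0.19) and passed, with an adjusted p of 0.0295 from limma. The glial marker mean was 6.20 ± 0.35 in male and 5.75 ± 0.38 in female lumbar libraries (SD, n = 5 each), and with it as a covariate the sex difference was 0.63 (adjusted p = 0.63).

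In the test of whether the difference between the levels depends on sex, 0 of 7 genes and 0% of all 16304 genes passed (limma, 0 of the 7 and 668 of all genes at an unadjusted p under 0.05, and 0 of the 7 by voom). The intervals were wide for the low genes. Slc17a7 was higher in lumbar DRG by 2.62 in males (adjusted p = 0.00888) and by 1.09 in females (adjusted p = 0.262), a difference of -1.52 with an interval of -3.59 to 0.54. For Slc17a8 the log2 fold changes were -1.14 and -0.62, a difference of 0.52 with an interval of -0.09 to 1.13. For Slc17a6, Glud1, Got1 and Got2 the interval of the difference lay within 0.49 of 0 on either side.

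Over the 20 libraries the genes with the profile most like that of Slc17a6, among 10444 genes with a mean log2 RPKM above 1, were Gpi1 (Pearson r = 0.976), a glycolytic enzyme, Emb (0.973) and Syn2 (0.973), a synaptic vesicle protein. For Got1 they were Ppp2r1a (0.98), Pigs (0.98) and Lpgat1 (0.978), and for Got2 Dnm1 (0.987), the neuronal dynamin, Rtn3 (0.987) and Prepl (0.983). For Glud1 they were Syt4 (0.937), Psmd1 (0.937) and Ccdc132 (0.936), and for Slc17a8 4931429I11Rik (0.962), Nsg2 (0.962) and Dffa (0.95). The best matches were lower for the 2 low genes, Sh3gl3 (0.758), A730017C20Rik (0.744) and Csrnp2 (0.732) for Gls2 and Slc35b2 (0.739), Zfp809 (0.735) and Zfp763 (0.723) for Slc17a7. With the means of the 4 groups taken out, Slc17a6 had r = 0.86 with each of Glud1, Got1 and Got2, 0.72 with Slc17a8 and 0.15 with Slc17a7 (n = 20). These values describe libraries that share their scaling.

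Across the ways of processing that were tried, Slc17a6 passed in all and Slc17a7 wherever it was tested. The other 5 genes each failed to pass in at least 1. The filter removed Slc17a7 in females alone, and the stricter filter removed it too, so it could not fail in either. In the main fit its difference in females did not pass (1.09, adjusted p = 0.262, limma). Got1 and Got2 came to -0.04 (adjusted p = 0.607, limma) and -0.03 (adjusted p = 0.633) when libraries were centred on the peptidergic nociceptor markers, while Slc17a6 stood at -0.61 (SE 0.06, adjusted p = 9.47e-07) and Slc17a8 at -0.35 (SE 0.12, adjusted p = 0.0164). Gls2 stood at -0.27 there (adjusted p = 0.331). These markers include Trpv1 and Scn10a, which were higher in sacral DRG themselves.

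**Figure D5:**
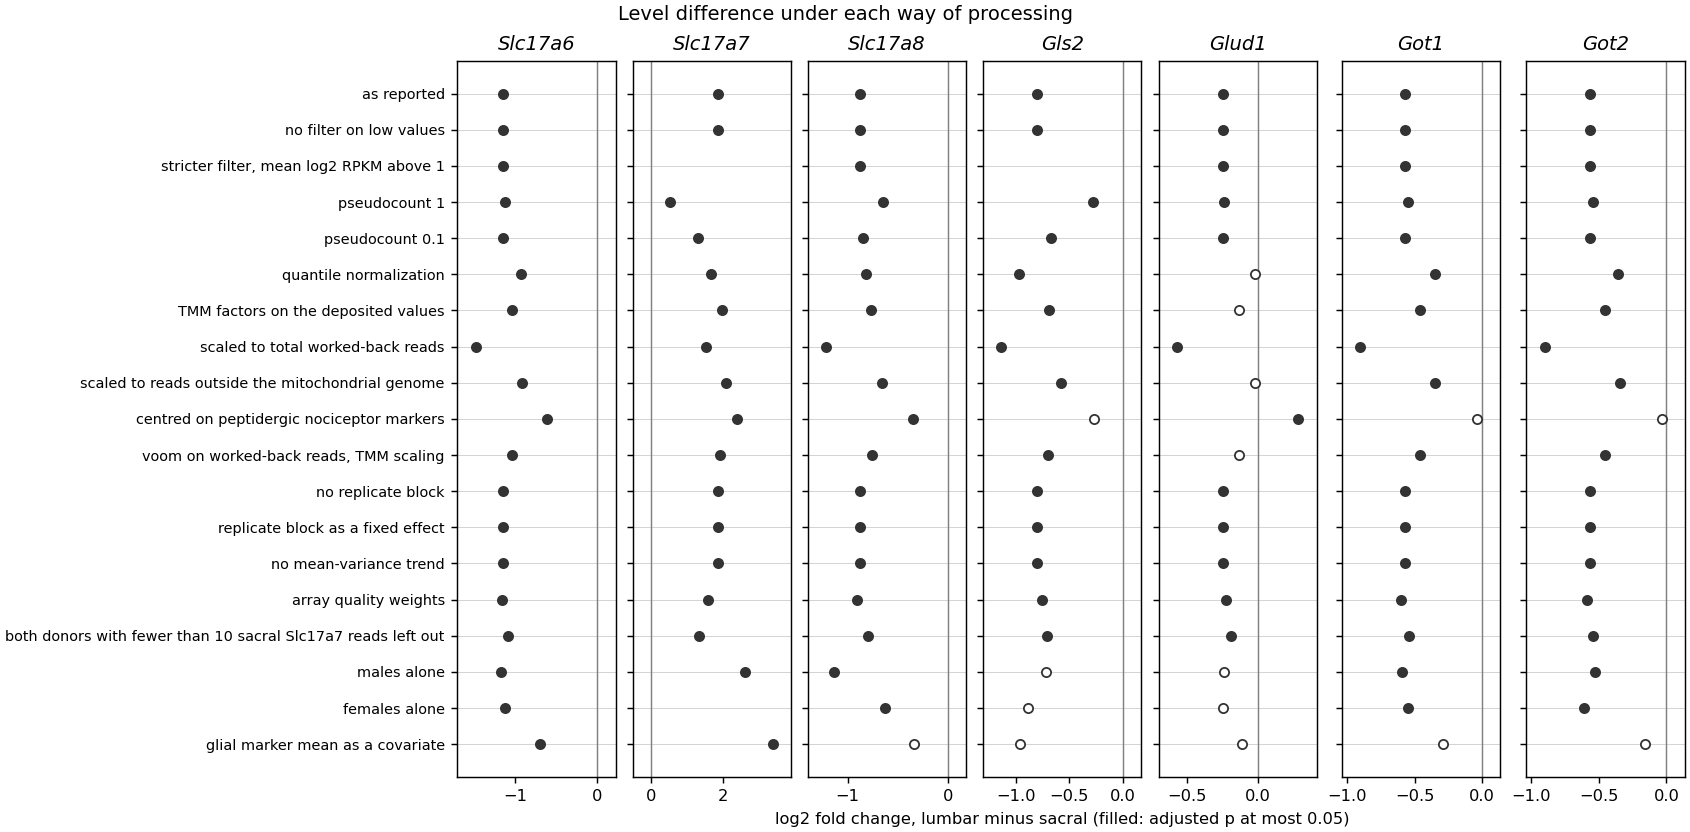
Log2 fold change, lumbar minus sacral (horizontal axis, own scale for each gene), under 19 ways of processing, with filled points for an adjusted p of at most 0.05 and no point where the gene was not tested. Slc17a6 and Slc17a7 are filled wherever they were tested, and Glud1 crosses 0 when libraries are centred on nociceptor markers.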

How the data were processed

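RNA of sorted Trpv1 neurons was amplified and sequenced in 20 libraries, grouped by the labels into 2 levels and 2 sexes, with lumbar and sacral libraries paired by the animal numbers in the labels. Per the labels and the study's methods, the authors aligned reads to mm9 with Subread 1.20.6 or 1.18, counted the uniquely mapped ones per Ensembl gene (featureCounts), and used voom in limma 3.26.9 and TMM in edgeR 3.12.1. The authors deposited these values as log2 RPKM. All libraries have the same median of 0.93, a step the methods do not describe. The methods name 5 male and 5 female mice, whereas each of the 10 donor labels carries 2 animal numbers, and pooling is not stated, so p-values measure the spread between these libraries. Large mitochondrial or glial shares can move values scaled in this way.

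Levels and sexes were compared with limma 3.58.1 and statmod 1.5.0 (R 4.3.3) on the deposited values, with a mean per group, donor as a random block (duplicateCorrelation, consensus 0.17), variances moderated along a trend with the mean, and p-values adjusted by Benjamini-Hochberg over all genes tested. Genes needed a mean log2 RPKM above -1 in at least 1 group with at least 3 values, which kept 16422 genes, and 16304 were tested between the levels. Same-numbered libraries of a donor had a mean correlation of deviations of 0.18 (0.039 to 0.3), against -0.044 for different donors of a sex. The deviations are from group means, so the value for different donors is tied to that for the same donor and is no separate reference. Reads were worked back from the values for 27506 genes, whole within 0.01 of a read, and served for depth and alternatives only, and read numbers cover counting error only. Shares and gene pairs were tested by exact sign flips, and correlations by 100000 permutations, in scipy 1.17.1 and numpy 2.4.6 under Python 3.11.15 (tables in pandas 2.3.3, figures in matplotlib 3.10.9). Symbols came from a reference list of gene names, filled in from the GENCODE annotation of the mm9 build, which also gave the positions. A symbol was found for 37205 of 37620 identifiers.

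On simulated data of 15318 genes, 100 differences of each of 2 sizes were planted. The level test found 90% of planted log2 differences of 1 and 51% of those of 0.5, and 3.42% of its calls were false. Far more genes passed in the real data, so these shares need not hold there. The 7 genes, the gene lists and the pairs were chosen with earlier results of these data known. Named beside them are Glul, up to 3 called genes per direction in each list, and the 3 genes most alike in profile, and 1 gene that this rule covers is not reported here. The alternatives were other filters, pseudocounts, scalings, block models, weights, voom on worked-back reads, each donor left out, each sex alone, an adjusted p of 0.01 and a glial covariate. Scaling to reads outside the mitochondrial genome, centring on peptidergic nociceptor markers and leaving out both donors with low Slc17a7 were chosen after seeing the data.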

Additional observations from a re-analysis of the deposited data

Results flagged for a closer look

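Of 32 sets of 5 libraries checked (7 genes and the Slc17a6 share in 4 groups), 1 held a library far from the others, and chance alone gives such a gap in about 1 of 20 sets. It was Slc17a8 in male lumbar libraries, where male donor 1 had a log2 RPKM of 1.75 and the other 4 lay between 0.42 and 0.70, a gap of 0.79 of the whole range. The same library had the lowest glial marker mean of the male lumbar libraries, 5.741, and its Slc17a6, Got1 and Got2 values, 5.50, 4.89 and 4.56, were the highest of that group as well. Its part in the sex difference of Slc17a8 is given with the values without this donor.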

How the results depend on the processing

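The level difference of Slc17a6 kept its direction and passed in 28 of 28 other settings, from -1.48 to -0.61. That of Slc17a7 did so in 26 of 26 in which it was tested, from 0.54 to 3.38 (limma, adjusted p up to 0.0434). The 26 do not hold females alone or the stricter filter, since Slc17a7 was removed in both. In the main fit its difference in females was 1.09 and did not pass (adjusted p = 0.262, limma). Many settings share libraries and steps, so these counts are not independent evidence. Slc17a8 passed in 27 of 28, Got1 and Got2 in 26 of 28, Gls2 in 23 of 27 and Glud1 in 20 of 28. Glud1 reversed to 0.291 when libraries were centred on peptidergic nociceptor markers, where 4 of the 7 genes and 10273 of all genes passed and the median of all genes was 0.42, against -0.11 as deposited, 0.00 with TMM factors, -0.44 scaled to total reads and 0.12 scaled to reads outside the mitochondrial genome. In males alone 4644 genes passed, 5 of them among the 7, with Gls2 (adjusted p = 0.149, limma) and Glud1 (0.0579) lost. In females alone 3671 passed, 4 of them among the 7, with Gls2 (0.0609) and Glud1 (0.102) lost and Slc17a7 not tested. With the glial covariate 229 genes passed, 2 of them among the 7. The causes of these moves were not tested. Each sex alone also has fewer libraries, and its part in them was not tested either. Leaving out 1 donor at a time left 7 of 7 genes passing, and 6623 to 7475 genes in all, 0 to 1 of the 7 between females and males (1, Slc17a8, without male donor 1) and 0 for the interaction. Without the replicate block 6577 genes and with donor as a fixed block 7151 genes passed, in place of 7436, each with 7 of 7, so the pairing changed no call among the 7.

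The Slc17a6 share differed by -2.83 points when taken over reads and not per length, and by -3.75 to -2.88 points with 1 donor left out. It was -4.04 points in males and -2.90 in females (exact p = 0.0625 in each, the smallest that 5 pairs allow). Depth limits Slc17a7, with as few as 4 reads, and Gls2, with 36, and the stricter filter left both untested.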
